A study of Mus musculus with 12 samples.

Results

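Sparc and Smoc2, the members of the SPARC family for which the targeted panel counted enough reads to be tested, were described across PKN2 genotype and TGF-β1 treatment in mouse pancreatic stellate cells (PSCs). They are 2 of the 420 genes of the panel, which was built for extracellular matrix (ECM) and cell adhesion genes. They were selected on their normalised counts in these same 4 groups, with those levels known, so their differences are given as a description, with errors and without a test. The 12 libraries fall into 4 groups of 3, labelled A, B and C, namely PKN2 WT and PKN2 KO cells, each after 72 h with vehicle or with TGF-β1 at 5 ng/ml. Both genotypes derive from the pancreas of a single Rosa26CreERT2+/WT PKN2 fl/fl mouse on the C57BL/6 background, so WT cells carry the floxed alleles too, and the cells were immortalised with SV40 large T antigen. In the KO, the floxed alleles of PKN2, a serine/threonine kinase, were deleted by a brief 4-hydroxytamoxifen exposure days before use, with Cre expressed from the ubiquitous Rosa26 locus. The vehicle of TGF-β1 was BSA in citrate buffer. The series text speaks of 3 lines per genotype. The study's methods describe several dishes per condition and define n in vitro as biological replicates, but do not tie the letters to dishes or lines, so p-values measure the spread between these libraries of cells from 1 mouse.

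SPARC family proteins are secreted, calcium-binding matricellular proteins, which modulate how cells and matrix interact rather than building the matrix themselves. They share a follistatin-like region and an extracellular calcium-binding domain with EF-hand loops. SPARC, also called osteonectin or BM-40, binds fibrillar collagens and collagen IV, is needed for normal collagen fibril assembly, and is a known product of activated stellate cells and of the fibroblasts around pancreatic tumours. SMOC2 is a larger family member that adds thyroglobulin-like domains, and it has been linked to fibroblast activation in fibrosis. TGF-β1 is the cytokine that drives stellate cells toward a myofibroblast state.

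Libraries held 1074095 to 1473153 reads over the panel, and 77 genes had no read in any of them. Pkn2, Acta2, Des and Gfap are not on the panel, so neither the deletion nor the classical stellate markers could be checked. The 8 fibroblast or stellate markers fixed for the panel took 26.0% to 34.7% of each library's reads in WT and 28.4% to 35.7% in KO, although Dcn and Lum were low, at up to 52 and 5 reads. Of the markers of other cells, Cd34 (endothelial) and Itga6 (epithelial) had the most reads. Every other endothelial, epithelial or leukocyte marker had at most 34 reads in any library, among them Pecam1 (1 to 12), Cdh5 (0 to 7), Cdh1 (0 to 4) and Itgam (0 to 1), and Itgal and Itga4 had no read. The summed normalised count of the 8 endothelial markers ranged from 604 to 618 in WT vehicle and 438 to 683 in KO vehicle, nearly all of it from Cd34, and from 39.4 to 46.0 and 21.97 to 30.1 after TGF-β1 in WT and KO. The 5 epithelial markers, almost all Itga6, summed to 956 to 1518 in WT vehicle, 1150 to 1600 in KO vehicle, 479 to 649 in WT with TGF-β1 and 684 to 937 in KO with TGF-β1. The lower sums after TGF-β1 come from Cd34 and Itga6, while some low markers were higher, such as Lamb3, with means of 1.84 in vehicle and 17.6 with TGF-β1 in WT and 1.57 and 29.8 in KO, and Cd93, with 1.73 and 15.5 in WT. The part of any of these in the differences below was not tested. In such bulk RNA, a change in the number of cells of a kind and a change in RNA per cell cannot be told apart.

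In GENCODE vM21 on GRCm38 (the mm10 assembly), Sparc (ENSMUSG00000018593) lies on the minus strand of chromosome 11, from 55394500 to 55423183, and its principal transcript has 10 exons and 302 codons. Smoc2 (ENSMUSG00000023886) lies on the plus strand of chromosome 17, from 14279506 to 14404790, with 13 exons and 447 codons. No annotated gene overlaps Sparc. An antisense gene, 4930474M22Rik, overlaps Smoc2 on the other strand, but 0 of its 607 exonic bases fall in a Smoc2 exon and it is not on the panel. The stretch below is where the coding sequences of Sparc and Smoc2 are most alike without gaps. It is shown because reads could be divided between relatives only where their sequences match. It encodes an EF-hand calcium-binding loop with residues on either side of it. The stretch lies within exon 9 of Sparc at chr11:55395807-55395873 (minus strand) and exon 11 of Smoc2 at chr17:14399540-14399606 (plus strand). Each is printed 5′ to 3′ along the mRNA, with the bases that the genes share in capitals.
Sparc: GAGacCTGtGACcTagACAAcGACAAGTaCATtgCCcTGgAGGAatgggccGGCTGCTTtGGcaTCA
Smoc2: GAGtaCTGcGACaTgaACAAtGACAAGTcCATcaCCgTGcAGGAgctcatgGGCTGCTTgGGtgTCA
Of these 67 bases, 45 are identical (67.2%). The longest unbroken run that the Sparc coding sequence shares with any Smoc2 transcript, on either strand, is 11 bases. Against the transcripts of the other 419 panel genes the longest run was 15 bases for Sparc and 17 bases for Smoc2, the latter in Gpc5, a glypican. The positions of the panel's primers are not given in the sources used here.

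Sparc was abundant in every library and its normalised counts, which are read counts scaled to reference genes, overlapped between all 4 groups. In WT vehicle, libraries A, B and C had 105790, 76683 and 98684 normalised counts. KO vehicle had 108467, 75050 and 113955. After TGF-β1, WT had 122442, 82372 and 106555, and KO had 122056, 69877 and 101060. Library B was the lowest of its group in each case, by more than any group differed from another. The B libraries also had the highest scaling factors, from 1.16 to 1.48 against 0.731 to 1.04 in A and C. The read shares given below use no factor.

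The group means ran from 103790 ± 20178 (SD, n = 3) in WT with TGF-β1, through 99158 ± 21057 in KO vehicle and 97664 ± 26255 in KO with TGF-β1, to 93719 ± 15176 in WT vehicle. No neighbours in this order differed beyond their spread, which includes the low B libraries and so could hide small differences. On the log2(normalised count + 1) scale, KO minus WT was 0.07 (SE 0.27) in vehicle and -0.11 (SE 0.27) after TGF-β1. TGF-β1 minus vehicle was 0.14 (SE 0.27) in WT and -0.04 (SE 0.27) in KO, and the effect of TGF-β1 in KO minus that in WT was -0.18 (SE 0.37). Over all 238 genes tested, the median log2 difference was 0.21 for KO minus WT in vehicle, 0.13 after TGF-β1, 0.00028 for TGF-β1 in WT and -0.14 in KO. The direction of the Sparc difference depended on the scaling for KO minus WT in vehicle and for TGF-β1 in either genotype. In vehicle, KO minus WT was -0.11 (SE 0.18) with TMM and -0.16 (SE 0.18) with median-of-ratios factors. For TGF-β1 in WT the difference was -0.11 (SE 0.075) with total reads. In KO it was 0.0077 (SE 0.18) with TMM, 0.03 (SE 0.18) with median of ratios and -0.23 (SE 0.075) with total reads. After TGF-β1, KO minus WT was negative under every scaling, from -0.11 to -0.23, and so was the effect of TGF-β1 in KO minus that in WT, from -0.069 to -0.18. Leaving out 1 library could also turn a direction, as KO minus WT in vehicle was -0.067 without WT vehicle B, -0.0058 without KO vehicle A and -0.041 without KO vehicle C. After TGF-β1, KO minus WT was 0.023 without WT with TGF-β1 A and 0.12 without KO with TGF-β1 B. Without the latter library, the effect in KO minus that in WT was 0.046.

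The share of a library's reads that mapped to Sparc needs no reference gene and varied less. In WT vehicle the share was 8.35%, 7.70% and 8.65% in A, B and C, and in KO vehicle it was 8.48%, 7.95% and 8.38%. After TGF-β1 it was 7.66%, 7.61% and 7.60% in WT and 7.09%, 6.74% and 7.29% in KO. The coefficient of variation within a group was 0.441% to 5.84% for the share and 16.2% to 26.9% for the normalised count. By share, Sparc was lower in every TGF-β1 library than in every vehicle library of the same genotype, which held for 41.2% of the genes tested in WT and 41.2% in KO. After TGF-β1 it was also lower in all KO libraries than in all WT libraries, as were 16.4% of the genes, while the vehicle groups overlapped, unlike those of 35.7% of the genes. With total-read scaling, the median log2 difference of all genes with TGF-β1 was -0.25 in WT and -0.34 in KO. For Sparc it was -0.11 and -0.23. For KO minus WT after TGF-β1, the median was 0.13, against -0.12 for Sparc. A share is relative to everything else on the panel, so a lower share and more reads of other genes cannot be told apart. The plot of Sparc on both scales sets these readings side by side.

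**Figure D1:**
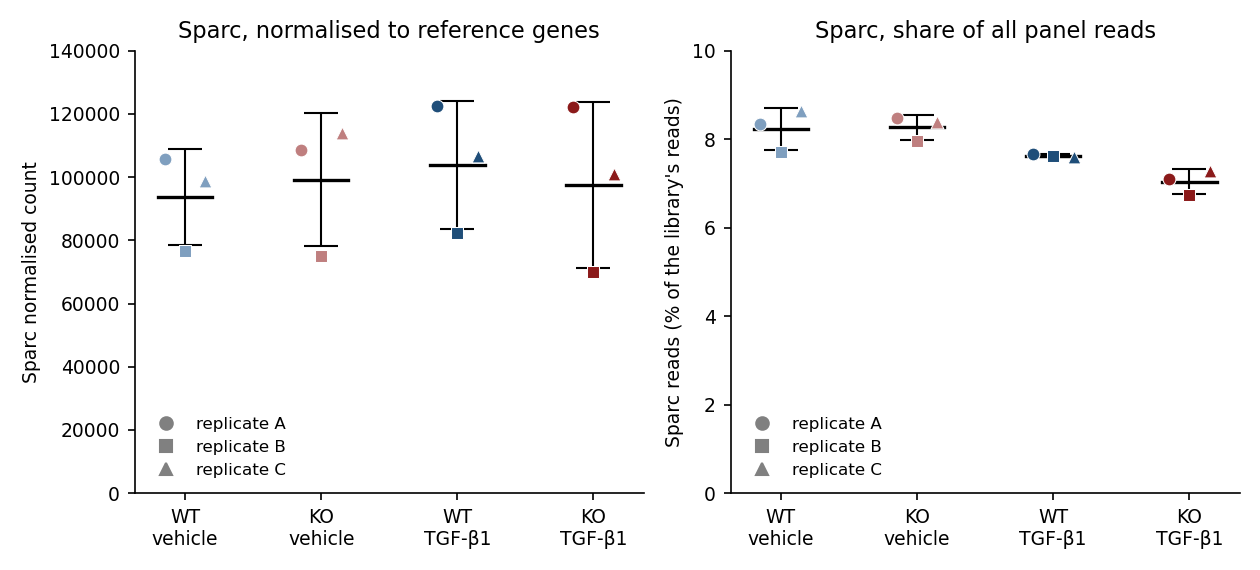
Sparc in the 12 libraries, as normalised count (left) and as percent of the library's reads (right), by group. Points are libraries (circle A, square B, triangle C), and the bars are the mean and SD of 3 libraries. Normalised counts overlap between all groups with B lowest, from 69877 to 82372, whereas the shares are 7.70% to 8.65% in vehicle and 6.74% to 7.66% after TGF-β1.

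Smoc2 was barely detected in vehicle and far higher after TGF-β1, and among the treated cells the PKN2 KO libraries were the highest. In WT vehicle, A, B and C had 10.6, 4.05 and 3.94 normalised counts, from 9, 6 and 4 reads. In KO vehicle they had 10.5, 4.95 and 11.7, from 9, 7 and 11 reads. After TGF-β1, WT had 196, 155 and 170 normalised counts, from 166, 196 and 177 reads, and KO had 611, 348 and 388, from 447, 405 and 318 reads. Every TGF-β1 library was above every vehicle library, and after TGF-β1 every KO library was above every WT library. The vehicle groups overlapped.

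**Figure D2:**
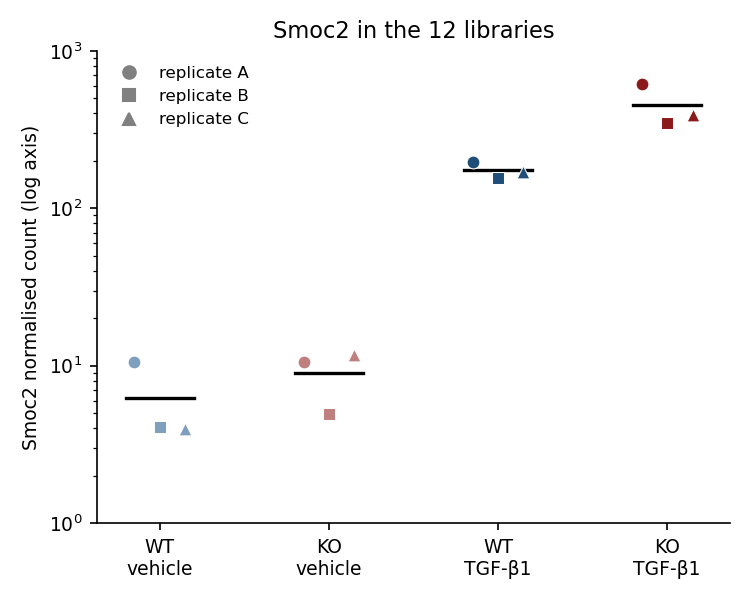
Normalised count of Smoc2 in the 12 libraries on a log axis, by group. Points are libraries (circle A, square B, triangle C) and lines are means of 3 libraries. Vehicle libraries lie between 3.94 and 11.7, WT libraries with TGF-β1 between 155 and 196, and KO libraries with TGF-β1 between 348 and 611.

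The means were 449 ± 142 (SD, n = 3) in KO with TGF-β1, 174 ± 20.7 in WT with TGF-β1, 9.05 ± 3.60 in KO vehicle and 6.21 ± 3.82 in WT vehicle, and of the neighbours in this order those in vehicle did not differ beyond their spread. Within WT, TGF-β1 raised the mean 28.0-fold, a log2 difference of 4.71 (SE 0.40), and within KO 49.6-fold, a log2 difference of 5.52 (SE 0.40). Among the 238 genes these were the 4th and 2nd highest log2 differences. Groups that lay wholly higher with TGF-β1 were found for 25.6% of the genes in WT and 21.4% in KO. KO minus WT was 0.53 (SE 0.40) in vehicle, where ranges did not overlap for 32.4% of the genes. After TGF-β1 it was 1.33 (SE 0.40), a ratio of means of 2.59, and 17.6% of the genes lay wholly higher in KO.

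The rise with TGF-β1 was 0.80 (SE 0.56) greater in KO than in WT on the log2 scale. That value rests on few reads in vehicle, 19 in all WT libraries together and 27 in all KO libraries. With exact Poisson 95% intervals, which cover counting error only, these were 5.13 reads per 1000000 (3.09 to 8.01) in WT and 7.28 (4.80 to 10.6) in KO, and these intervals overlap, so a difference of the size observed in vehicle was not resolved at this depth. After TGF-β1 the pooled reads were 129 per 1000000 (118 to 140) in WT and 325 (307 to 344) in KO. Without WT vehicle A, which held 9 of the 19 reads, the TGF-β1 difference in WT was 5.12, KO minus WT in vehicle was 0.93 and the difference of the rises was 0.40. After TGF-β1, KO minus WT stayed between 1.08 and 1.49 whichever library was left out, the lowest without KO with TGF-β1 A. Unlike those of Sparc, the Smoc2 differences were positive under every scaling, as the plot of both genes under the 5 scalings shows.

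**Figure D3:**
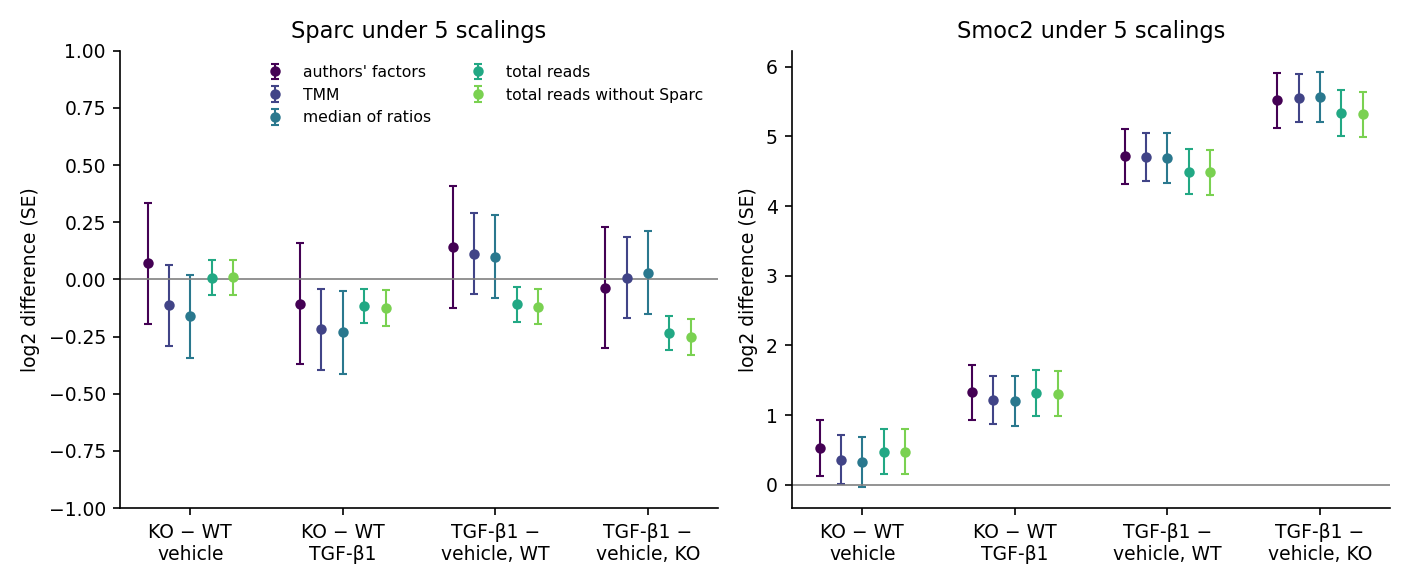
Log2 differences of Sparc (left) and Smoc2 (right) in 4 comparisons under 5 ways of scaling the libraries. Points are fitted differences and bars their SE, and the vertical axes differ in range. Sparc stays between -0.25 and 0.14, negative throughout for KO minus WT after TGF-β1 and changing sign in the other comparisons. Smoc2 is positive throughout, between 1.20 and 1.33 for KO minus WT after TGF-β1 and between 4.48 and 5.57 for TGF-β1 minus vehicle.

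The other SPARC family genes of the panel, Spock1, Spock2 and Spock3, encode testicans, which are secreted proteoglycans. Spock1 and Spock3 had 0 reads among 15197630 in the 12 libraries, which at the floor of 3 reads allows up to 0.197 reads per 1000000. Spock2 was near the limit of detection and below the filter for testing. In A, B and C it had 2, 7 and 4 reads in WT vehicle, 3, 6 and 5 in KO vehicle, 0, 2 and 1 in WT with TGF-β1 and 6, 6 and 4 in KO with TGF-β1. The WT libraries with TGF-β1 had the fewest reads, tied at 2 with WT vehicle A, and the reads of the other groups overlapped.

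The genes whose pattern was most like that of each member were taken by the root mean square difference over the 12 libraries, after centring log2 values on each gene's mean. Since this choice used the same libraries, their differences are given as a description. Closest to Sparc were Col1a2, a chain of collagen I (0.097), Pcdhgc5, a clustered protocadherin (0.12), and Ctnna1, the adherens junction protein alpha-catenin (0.12). None of these genes passed in any comparison. The normalised counts carry each library's scaling factor, which genes without a difference share. The likeness to Sparc therefore does not show that these genes change together with it. Col1a2 had means of 32207 ± 5620 in WT vehicle, 35292 ± 7735 in KO vehicle, 37901 ± 7437 in WT with TGF-β1 and 38347 ± 8374 in KO with TGF-β1 (n = 3).

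Closest to Smoc2 were Cdh6 (0.46), a cadherin, Adamtsl2 (0.57), a secreted matrix protein that binds LTBP1 and fibrillin, and Edil3 (0.98), a secreted integrin ligand. Cdh6 went from 16.7 ± 4.54 to 772 ± 81.7 in WT, a log2 difference of 5.47 (SE 0.28), and from 22.7 ± 8.79 to 1186 ± 185 in KO. Its log2 difference between KO and WT after TGF-β1 was 0.61 (SE 0.28). Adamtsl2 had 9.83 ± 2.92 normalised counts in KO vehicle against 2.12 ± 0.210 in WT vehicle, where the libraries had 2, 3 and 2 reads, and after TGF-β1 it had 339 ± 56.6 in KO against 93.5 ± 15.9 in WT. Edil3 went from 37.7 ± 15.2 to 469 ± 109 with TGF-β1 in WT, a log2 difference of 3.65 (SE 0.30), and from 61.6 ± 11.4 to 548 ± 148 in KO. The plot of their group means traces these profiles.

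**Figure D4:**
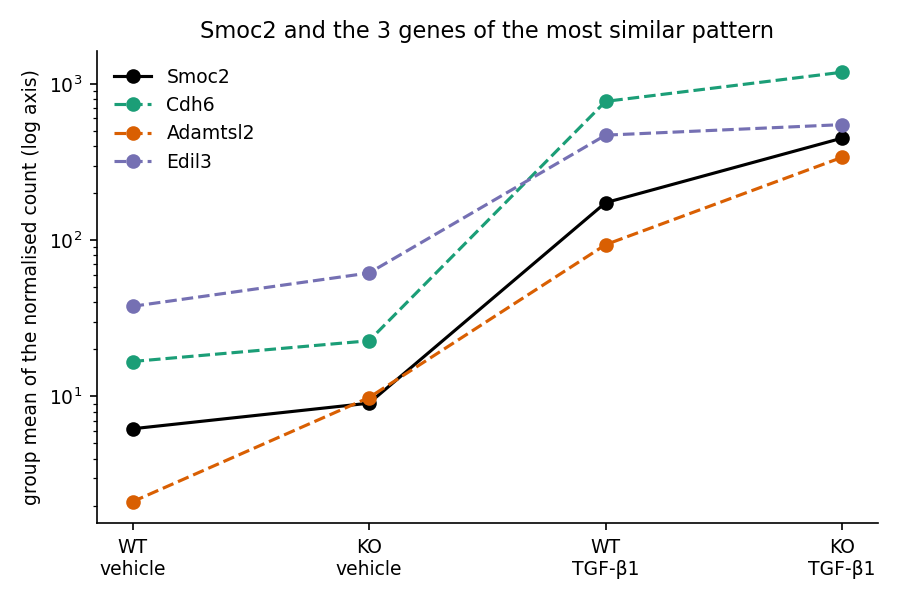
Group means of the normalised count (n = 3) on a log axis for Smoc2 (solid line) and for Cdh6, Adamtsl2 and Edil3 (dashed lines), the 3 genes of most similar pattern. Lines join groups only to guide the eye. All 4 genes are low in vehicle and high after TGF-β1, and Adamtsl2 goes from 2.12 in WT vehicle to 339 in KO with TGF-β1.

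In the limma fit, 10.9% of the 238 genes passed as higher and 2.94% as lower in KO than WT in vehicle, and 8.82% and 6.3% after TGF-β1. With TGF-β1, 50.8% of the genes changed in WT (23.9% rose and 26.9% fell) and 48.7% in KO (19.7% rose and 29% fell). The effect of TGF-β1 differed between the genotypes for 3.36%. The counts of the lists below are read against these shares.

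SPARC binds collagens, so the collagen chains of the panel were examined next. Of 8 fibrillar and network collagen genes, 2 were higher in KO than WT in vehicle and 2 after TGF-β1, where 13.9% and 15.1% of all genes passed in either direction. In both cases these were Col4a1 and Col4a2, the chains of basement membrane collagen IV. Col4a1 had 276 ± 45.1 normalised counts in WT vehicle against 529 ± 84.5 in KO, a log2 difference of 0.94 (SE 0.19, limma adjusted p = 0.00382), and differed by 0.99 (SE 0.19) after TGF-β1. Col4a2 differed by 0.95 (SE 0.28) and 0.96 (SE 0.28). Its vehicle call was lost without WT vehicle B or C, KO vehicle A or C, or the C library of either genotype with TGF-β1 (limma adjusted p 0.0608 to 0.160) and without trend (limma adjusted p = 0.0688), and its TGF-β1 call without WT vehicle C, WT with TGF-β1 B or C, or KO with TGF-β1 A or C (limma adjusted p 0.0502 to 0.130). With TGF-β1, 3 collagen genes rose in WT and 2 in KO, led by Col5a3 (2.50, SE 0.18, in WT and 2.20 in KO) and Col5a2 (0.92, SE 0.24, and 0.99), chains of the collagen V that is built into collagen I fibrils. None fell. The list's median log2 difference was 0.11 and -0.00016 for KO minus WT in vehicle and TGF-β1, and 0.34 and 0.15 for TGF-β1 in WT and KO.

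Collagen processing genes encode the enzymes and helpers that modify, trim and cross-link procollagen. Of 13 on the panel, 11 were tested, and none passed between genotypes in vehicle. After TGF-β1, 2 were lower in KO. Adamts14, a procollagen N-proteinase, had 151 ± 18.7 normalised counts in WT and 47.4 ± 3.86 in KO (log2 difference -1.64, SE 0.21, limma adjusted p = 8.50e-05). Loxl2, a cross-linking lysyl oxidase, had 842 ± 366 and 327 ± 114 (limma adjusted p = 0.0179), a call lost without WT with TGF-β1 A or C or KO with TGF-β1 B (limma adjusted p 0.0561 to 0.0682). With TGF-β1, 3 rose and 2 fell in WT, and 1 rose and 4 fell in KO. Plod2, a lysyl hydroxylase, rose by 1.68 (SE 0.22) in WT and 1.83 in KO. Lox rose by 0.88 (SE 0.27) in WT, a call lost without WT vehicle B or WT with TGF-β1 A (limma adjusted p 0.0561 and 0.0602). Pcolce, which enhances procollagen C-terminal trimming, fell by 0.94 (SE 0.26) in WT and by 1.07 in KO. Adamts2, another N-proteinase, fell by 0.83 (SE 0.18) in WT, and Adamts14 fell by 1.64 (SE 0.21) in KO. The list's median was 0.085 and 0.0043 for KO minus WT in vehicle and TGF-β1, and 0.18 and 0.16 for TGF-β1 in WT and KO.

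Other matricellular genes were compared as the nearest functional relatives of Sparc and Smoc2. Of 10, 8 were tested, and none passed between genotypes in vehicle. After TGF-β1, Ccn2, the connective tissue growth factor gene, was lower in KO, at 24130 ± 4136 against 53926 ± 5983 (log2 difference -1.17, SE 0.22, limma adjusted p = 0.00166). Thbs1, which encodes thrombospondin-1, was also lower, at 12106 ± 2901 against 22541 ± 4790 (limma adjusted p = 0.0112), a call lost without WT with TGF-β1 A or C (limma adjusted p 0.0535 and 0.0561). Tnxb, the gene of tenascin-X, was called higher in KO from 4, 5 and 3 reads against 0, 0 and 3, and was not called by edgeR (adjusted p = 0.0830) or DESeq2 (adjusted p = 0.0863), nor with a pseudocount of 5, where the log2 difference went from 1.79 to 0.70 (limma adjusted p = 0.0797), nor without WT with TGF-β1 A or B or KO with TGF-β1 A (limma adjusted p 0.0552 to 0.0736). With TGF-β1, 5 rose and 2 fell in WT, and 2 rose and 2 fell in KO. Tnc, encoding tenascin-C, rose from 1099 ± 212 to 10079 ± 2591 in WT, by 3.18 (SE 0.22), and by 3.27 in KO. Thbs1 rose by 1.54 (SE 0.22) in WT. Thbs2 rose by 0.82 (SE 0.28) in KO, a call lost without KO vehicle A or B or KO with TGF-β1 A or C (limma adjusted p 0.0503 to 0.122). Spp1, encoding osteopontin, fell by 1.13 (SE 0.27) in WT and by 0.88 in KO, the latter not called without KO vehicle C or KO with TGF-β1 B (limma adjusted p 0.0613 and 0.0591). Tnxb fell from 115 ± 12.0 to 0.961 ± 1.66 in WT and from 173 ± 25.8 to 4.48 ± 0.918 in KO. It passed the filter for testing only through vehicle libraries, so the filter favoured a fall for it. The list's median was 0.23 and 0.095 for KO minus WT, and 0.87 and 0.25 for TGF-β1 in WT and KO.

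Matrix metalloproteinases known to cleave SPARC numbered 6 on the panel, and 4 were tested. None passed between genotypes in vehicle, 1 was lower in KO after TGF-β1, and 3 rose with TGF-β1 in WT and 3 in KO. Mmp9, a gelatinase, had 0, 0 and 1 reads in WT vehicle and 2, 2 and 0 in KO vehicle, and reached 216 ± 67.9 normalised counts in WT and 31.8 ± 12.0 in KO with TGF-β1 (KO against WT, limma adjusted p = 0.00153). Mmp13, a collagenase, reached 10.1 ± 6.26 in WT and 15.9 ± 10.5 in KO, from at most 3 reads in any vehicle library. Mmp9 and Mmp13 passed the filter for testing only through TGF-β1 libraries, so the filter favoured a rise for them. The list's counts and medians include both genes. Over all genes tested, 23.9% rose with TGF-β1 in WT and 19.7% in KO. The median log2 difference of the list was 0.46 and 0.29 for KO minus WT, and 1.83 and 1.71 for TGF-β1 in WT and KO. Of 4 binding partners of SPARC, Thbs1 and Vcam1 were tested. Vcam1, a cell adhesion receptor, fell with TGF-β1 from 940 ± 143 to 47.8 ± 10.9 in WT, a log2 difference of -4.28 (SE 0.26), and from 660 ± 37.1 to 31.6 ± 12.0 in KO, one of -4.40. It did not pass between the genotypes, and with Thbs1 given above the list's median was -0.18 and -0.76 for KO minus WT, and -1.37 and -1.96 for TGF-β1 in WT and KO.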

How the data were processed

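PSC RNA was amplified by the authors with a QIAseq mouse ECM and cell adhesion panel, pooled as 12 libraries and sequenced on a MiSeq, and reads per gene came from the manufacturer's pipeline. The submitters' processing notes name STAR, DESeq2 1.32 and mm10. The sources used here do not say whether molecular identifiers were collapsed. Raw counts were deposited together with normalised counts, which are a signal scaled by the authors with 1 factor per library from reference genes. A repeated name left 6 columns of raw counts without a library, and these were not used. Dividing the normalised counts of each library by its smallest step gave whole reads in all 12 libraries, equal to the deposited raw counts for 420 of 420 genes in the 6 uniquely named columns.

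Normalised counts were analysed as log2(normalised count + 1) with limma 3.58.1 in R 4.3.3 (lmFit, eBayes with trend and robust), with 4 group means, for the 238 genes with at least 10 in at least 3 libraries. Benjamini-Hochberg adjustment covered all genes tested, at a threshold of 0.05. Panel counts depend on each gene's primers, so RNA levels were not compared between genes, and the markers are set side by side as reads only. The members and gene lists were chosen with earlier results of these data known. Named genes were the family's genes, the 3 most similar genes of each member and, from each list, up to 2 genes per direction and comparison with the largest log2 difference among those called. Alternatives were TMM, median-of-ratios and total-read scalings, pseudocounts of 0.5 and 5, no filter, edgeR 4.0.16 and DESeq2 1.42.0. Further ones were limma with neither trend nor robust, called without trend throughout, the replicate letter as a block, and each library left out. Coding sequences came from GENCODE vM21. The script was tested on simulated data.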

Additional observations from a re-analysis of the deposited data

Results flagged for a closer look

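The effect of TGF-β1 differed between KO and WT for Adamts14, Ccn2 and Mmp9 by the interaction term of the limma fit, and these list members are named because they passed. For Adamts14 the log2 interaction was -1.33 (SE 0.30, limma adjusted p = 0.0257), with a TGF-β1 difference of -1.64 in KO. For Ccn2 it was -1.26 (SE 0.31, limma adjusted p = 0.0386), and its mean went from 22479 to 53926 in WT and from 23640 to 24130 in KO. For Mmp9 it was -3.41 (SE 0.72, limma adjusted p = 0.0257), from at most 2 reads in any vehicle library. The Adamts14 call was lost with total-read scaling, with or without Sparc (limma adjusted p = 0.0693 and 0.0633), and without WT vehicle C, any KO vehicle library, WT with TGF-β1 A or C, or KO with TGF-β1 B or C (limma adjusted p 0.0509 to 0.0878). The Ccn2 call was lost with total-read scaling, with or without Sparc (limma adjusted p = 0.0658 and 0.0608), with edgeR (adjusted p = 0.0535), with limma without trend (adjusted p = 0.0506), and without WT vehicle A or C, any KO vehicle library, WT with TGF-β1 A or C, or KO with TGF-β1 B or C (limma adjusted p 0.0594 to 0.131). The Mmp9 call was lost with edgeR (adjusted p = 0.136) and without KO vehicle A or B, WT with TGF-β1 A or C, or KO with TGF-β1 B (limma adjusted p 0.0509 to 0.0873). The same difference for Smoc2, 0.80 (SE 0.56), was not tested.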

How the results depend on the processing

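The Smoc2 differences kept their direction under every alternative run. The WT difference with TGF-β1 moved from 4.71 to 4.04 with a pseudocount of 5. Leaving out 1 library, Smoc2 ranged from 0.32 to 0.93 for KO minus WT in vehicle, 1.08 to 1.49 after TGF-β1, 4.50 to 5.12 for TGF-β1 in WT, 5.17 to 5.72 in KO and 0.40 to 1.01 for the interaction, and Sparc from -0.067 to 0.26, -0.29 to 0.12, 0.0036 to 0.30, -0.22 to 0.19 and -0.37 to 0.046. With a library left out, genes called numbered 17 to 38 for KO minus WT in vehicle, 26 to 48 after TGF-β1, 111 to 124 for TGF-β1 in WT, 99 to 116 in KO and 0 to 11 for the interaction, with 0 without KO vehicle B or WT with TGF-β1 C. Counts in vehicle fell to 17 without WT vehicle C, 18 without KO vehicle A and 20 without KO vehicle C. KO minus WT after TGF-β1 gave 36 calls, against 56 with TMM and 65 with total reads, with or without Sparc, and the interaction gave 8, against 4 without trend.

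Higher and lower calls in vehicle were 26 and 7, against 20 and 13 with TMM and 19 and 20 with median of ratios. These scalings moved the median log2 difference of all genes there from 0.21 to 0.02 and -0.02. After TGF-β1, KO minus WT gave 21 higher and 15 lower, against 27 and 29 with TMM, and 24 and 30 with median of ratios. TGF-β1 in WT gave 57 and 64, against 54 and 96 with total reads, which moved the median of all genes to -0.25, and to -0.34 for TGF-β1 in KO. The cause of these shifts was not tested.

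The replicate letters, which the methods do not tie to dishes or lines, were not taken as a pairing. Of 18 same-letter pairs, 13 correlated above 0.1 (-0.23 to 0.70), and 10 of 12 libraries correlated best with their own letter. With the replicate block, calls numbered 87 in vehicle, 101 after TGF-β1 and 42 for the interaction. That fit also drew most genes' spread from the trend over all genes. Its median prior degrees of freedom were infinite, against 5.87 without the block. How far this added to the calls was not tested. The block left the log2 differences of Sparc and Smoc2 unchanged. Between any 2 groups, their SE went from 0.27 to 0.13 for Sparc and from 0.40 to 0.29 for Smoc2, so the SE given above include the spread between letters. Chosen after seeing the data, the block with total reads gave 85, 102 and 32, and the block without trend 73, 91 and 20. Counts of list members called were equal or within 1.5 times in 498 of 625 cases over all alternatives, larger in 79 and smaller in 48. Equal counts include cases in which no member was called in either fit. Low read counts limit Smoc2 in vehicle and Spock2 in every group.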
